A study of Mus musculus with 4 samples.

Results

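Interferon gamma, encoded by Ifng, is the main macrophage-activating cytokine made by CD8 T cells, and IL-12 and IL-18 are the cytokines that drive its production. The 8 genes described here are Ifng, the chains of its receptor (Ifngr1, Ifngr2), the chains of the IL-12 receptor (Il12rb1, Il12rb2), the chains of the IL-18 receptor (Il18r1, Il18rap) and Stat4. They were taken by gene symbol from a table of 15367 symbols, and all 8 were found. The RNA came from flow-sorted liver CD8 T cells of adult C57BL/6 mice that had been fed an MCD diet for 4 weeks. The groups were mice labelled perforin knockout (2 libraries) and mice labelled wild type (2 libraries), so that strain, diet and diet time were common to both. The labels do not give the perforin allele, or say whether the 2 libraries of a group came from separate or pooled animals, and the p-values therefore measure a spread that may be technical.

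In textbook outline, IL-12 binds a receptor built from IL-12Rβ1 and IL-12Rβ2 and signals through JAK2, TYK2 and the transcription factor STAT4. IL-18 binds IL-18Rα, recruits the accessory chain IL-18Rβ and signals through MYD88 and the IRAK kinases. Both inputs converge on Ifng transcription, and secreted interferon gamma signals through IFNGR1 and IFNGR2 to JAK kinases, in T cells as well as in neighbouring cells of the liver.

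The 250 bases upstream of the annotated start are shown for Ifng, the cytokine itself, for Ifngr1, which had the highest level of the 8 genes, and for Il12rb2, which had the largest fitted difference between groups. The sequences are RefSeq's, on build GRCm38.p6, and are printed 5′ to 3′ on the strand of the gene. They lie at chr10:118440796-118441045 (plus strand) for Ifng, chr10:19591699-19591948 (plus strand) for Ifngr1 and chr6:67376189-67376438 (minus strand) for Il12rb2. Capitals mark matches to 4 motifs searched on both strands, a TATA box (TATAAA), a STAT site (TTCNNNGAA), an AP-1 site (TGANTCA) and a T-box half-site (GGTGTGA).
Ifng: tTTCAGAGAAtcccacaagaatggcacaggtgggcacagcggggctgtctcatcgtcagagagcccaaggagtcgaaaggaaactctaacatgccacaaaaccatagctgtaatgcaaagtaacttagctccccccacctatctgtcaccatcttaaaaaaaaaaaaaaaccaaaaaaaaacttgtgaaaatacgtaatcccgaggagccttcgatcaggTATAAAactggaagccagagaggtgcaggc
Ifngr1: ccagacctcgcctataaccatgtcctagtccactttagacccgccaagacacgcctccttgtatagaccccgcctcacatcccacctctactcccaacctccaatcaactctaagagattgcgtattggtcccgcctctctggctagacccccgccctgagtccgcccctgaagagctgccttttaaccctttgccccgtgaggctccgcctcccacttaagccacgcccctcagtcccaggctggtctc
Il12rb2: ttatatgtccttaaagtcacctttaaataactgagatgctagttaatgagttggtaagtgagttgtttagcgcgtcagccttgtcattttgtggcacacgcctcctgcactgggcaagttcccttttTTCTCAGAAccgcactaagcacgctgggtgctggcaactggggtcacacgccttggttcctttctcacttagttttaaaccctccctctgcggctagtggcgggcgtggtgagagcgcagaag
Ifng held a TATA box match from base -30 to -25 before its start and a STAT site match from -249 to -241, and these did not overlap. Il12rb2 held a STAT site match from -123 to -115, and the Ifngr1 window held no match to the 4 motifs. Of 32851 RefSeq windows of this length, 12.4% held the TATA box letters, 7.02% the STAT site, 6.75% the AP-1 site and 3.33% the T-box half-site. Promoter windows were matched for 7 of the 8 genes, as 10 windows in all, because Il18r1 and Stat4 have several starts. The TATA box letters occurred in the Ifng window alone among these 10, and the STAT letters in 3 of them, the third being a window of Il18r1. A match is a stretch of letters and not evidence of binding.

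Values were read as FPKM, a unit that header and labels do not name. FPKM scale fragments by transcript length and sequencing depth. Levels of different genes can be compared per length only if that reading holds. Depth is unknown, since values of this kind do not carry read numbers. The column sums were 334493 and 383498 in the libraries labelled knockout and 378364 and 392785 in wild type. Replicate 1 of the libraries labelled knockout was unlike the other 3, with correlations across genes of 0.914 to 0.924, and differed by more than 2-fold from all 3 in 1 direction for 549 genes. Prf1, the targeted gene, was listed at 95.4 and 98.7 FPKM in the libraries labelled knockout and at 125 and 113 FPKM in wild type (log2 fold -0.29, limma adjusted p = 0.873), so its RNA does not check the labels. The CD8 T cell markers Cd8a, Cd8b1, Cd3d, Cd3e, Cd3g, Cd2 and Cd5 were all present, with a summed level of 2450 and 2819 FPKM in the libraries labelled knockout and of 3009 and 2778 FPKM in wild type. Their geometric mean, by which libraries are scaled to these markers below, was lower in both libraries labelled knockout. It was 266 and 285 FPKM there and 314 and 310 FPKM in wild type. Of these 7 markers, 2 (Cd3d and Cd3g) were below wild type in both libraries labelled knockout, against 21.9% of the 9805 genes tested below. Log2 folds were below 0 for 5 of the 7 and above 0 for 2, with a median of -0.03. Cd8a itself had 289 and 272 FPKM in the libraries labelled knockout and 283 and 289 FPKM in wild type.

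The 8 genes spanned a wide range of levels in the order Ifngr1, Ifng, Ifngr2, Stat4, Il18r1, Il18rap, Il12rb2 and Il12rb1. Ifngr1 averaged 2090 FPKM over the 4 libraries, and Il12rb1, the lowest, 3.36 FPKM. Neighbours in this order whose ranges over the 4 libraries overlapped were Ifngr2 and Stat4, Il18r1 and Il18rap, and Il12rb2 and Il12rb1. The other neighbouring pairs had separate ranges. The chains named first for each of the 3 receptors differed widely in level, with means of 2090 FPKM for Ifngr1, 33.3 FPKM for Il18r1 and 3.36 FPKM for Il12rb1.

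**Figure D1:**
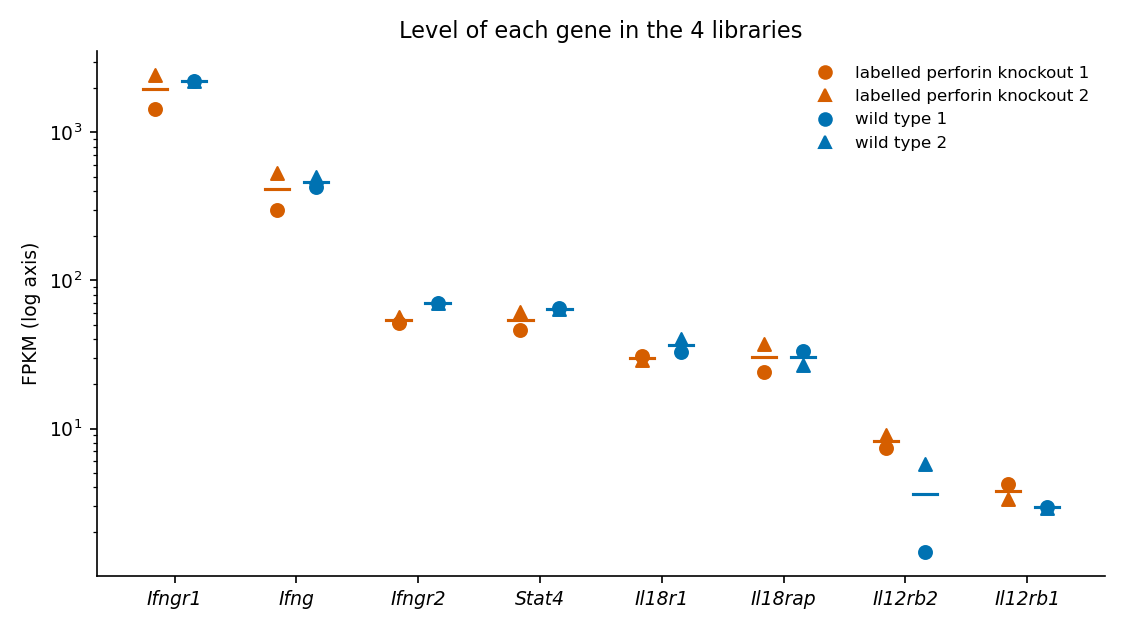
FPKM on a log axis for the 8 genes, ordered by mean level, in libraries labelled perforin knockout (left of each pair) and wild type (right); circles are replicate 1, triangles replicate 2 and bars the mean of 2. Ifngr1 lies between 1446 and 2458 FPKM and Il12rb1 between 2.92 and 4.23 FPKM, and Il12rb2 in wild type replicate 1 (1.47 FPKM) is the lowest point.

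The comparison of interest was whether these genes differ between hepatic CD8 T cells of mice labelled perforin knockout and of wild type mice. Fold changes below are on the log2(FPKM + 1) scale, labelled knockout minus wild type, tested with limma over all 9805 genes with a mean of at least 1 FPKM, and they understate changes of low genes. All 8 genes passed that filter. None of them (0 of 8) passed limma's adjusted p threshold of 0.05, against 0% of all tested genes. At an unadjusted p under 0.05 there was 1 gene of 8, Il12rb2, where 4.79% of tested genes had such a p, or 2.07% counting only genes higher in the libraries labelled knockout, as Il12rb2 was. An exact permutation test of 2 against 2 libraries cannot give a two-sided p below 0.333.

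Ifng had 301 and 529 FPKM in the libraries labelled knockout, against 427 and 502 FPKM in wild type. The 2 libraries labelled knockout were the lowest and the highest of the 4, so the groups overlapped. Ifng ranked 135 and 81 by level among the 15367 symbols in the libraries labelled knockout, and 106 and 93 in wild type. Its log2 fold was -0.21 (SE 0.32, 95% interval -0.94 to 0.52, limma adjusted p = 0.919), an interval that reaches from 0.520 to 1.43 times the wild type level. Without the library labelled knockout replicate 1 the log2 fold was 0.19, and without replicate 2 it was -0.62. In GENCODE M21, 336 exon bases of Ifng are shared with Gm49751, a same-strand gene model, and reads there cannot be assigned to one or the other. In such bulk libraries, fewer Ifng-expressing cells and less Ifng RNA per cell cannot be told apart.

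Ifngr1 encodes the ligand-binding chain of the interferon gamma receptor. Its level was 1446 and 2458 FPKM in the libraries labelled knockout and 2235 and 2219 FPKM in wild type. It was among the most abundant RNAs of these cells, ranking 19 and 6 in the libraries labelled knockout and 10 and 14 in wild type. The wild type libraries were nearly equal, and those labelled knockout lay on either side of them. The log2 fold was -0.24 (SE 0.34, 95% interval -1.02 to 0.54, limma adjusted p = 0.915), and it was 0.14 without the library labelled knockout replicate 1 and -0.62 without replicate 2.

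Ifngr2, the chain that brings JAK2 to the receptor, had 51.9 and 56.8 FPKM in the libraries labelled knockout, against 70.7 and 70.3 FPKM in wild type. Here both libraries labelled knockout were below both wild type libraries. The mean was 54.4 ± 3.47 FPKM in the libraries labelled knockout and 70.5 ± 0.313 FPKM in wild type (SD, n = 2 each). The log2 fold of -0.37 (SE 0.24, 95% interval -0.91 to 0.17) did not pass limma's test (adjusted p = 0.866). It lay between -0.43 and -0.31 whichever library was left out, and the groups also did not overlap after upper-quartile scaling, median scaling or scaling to the CD8 T cell markers. The unadjusted limma p of Ifngr2 was 0.157 with the filter and 0.0188 with no filter on low values, where the adjusted p was 0.840.

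Il12rb2 encodes the IL-12 receptor chain that docks STAT4 and whose expression is regulated during T cell differentiation. It was listed at 7.36 and 9.05 FPKM in the libraries labelled knockout, against 1.47 and 5.74 FPKM in wild type. Both libraries labelled knockout were above both of wild type, but wild type replicate 1 was itself far below wild type replicate 2. The mean was 8.21 ± 1.20 FPKM in the libraries labelled knockout and 3.60 ± 3.02 FPKM in wild type (SD, n = 2 each). The log2 fold of 1.17 (SE 0.49, 95% interval 0.05 to 2.29) was the largest of the 8 genes in size, with an unadjusted limma p of 0.0424 and an adjusted p of 0.866. A fitted change of over 2-fold in either direction was seen in 1 of the 8 genes and in 4.12% of all tested genes.

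The unadjusted p of Il12rb2 was under 0.05 in 9 of the 16 alternatives and over it in the other 7, among them 0.0538 with a mean of at least 5 FPKM, 0.0540 without an intensity trend, 0.0623 with sample weights, 0.172 with no filter and 0.389 without wild type replicate 1. The size of the Il12rb2 difference depended on which wild type library was kept. Without wild type replicate 1 the log2 fold was 0.44, and without wild type replicate 2 it was 1.89. Leaving out either library labelled knockout gave 1.30 without replicate 1 and 1.04 without replicate 2. In GENCODE M21, 1519 exon bases of Il12rb2 are shared with Serbp1, a gene on the opposite strand, and the TruSeq RNA kit named in the labels does not mark strand, so the Il12rb2 value is uncertain. Serbp1 itself stood at 109.7 and 109.7 FPKM in the libraries labelled knockout and at 107 and 116 FPKM in wild type, a log2 fold of -0.02.

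Il12rb1, the chain shared with the IL-23 receptor, had 4.23 and 3.35 FPKM in the libraries labelled knockout, against 2.96 and 2.92 FPKM in wild type. The groups did not overlap, and the log2 fold was 0.28 (SE 0.38, 95% interval -0.59 to 1.14, limma adjusted p = 0.908). It was 0.14 without the library labelled knockout replicate 1. Stat4, the transcription factor activated by IL-12, had 46.6 and 60.9 FPKM in the libraries labelled knockout and 65.0 and 63.8 FPKM in wild type. Its groups did not overlap either, with the wild type libraries above, although the library labelled knockout replicate 2 came close to them. The log2 fold of Stat4 was -0.27 (SE 0.25, 95% interval -0.85 to 0.31, limma adjusted p = 0.882), and -0.08 without the library labelled knockout replicate 1 or -0.46 without replicate 2. The Stat4 groups overlapped when the libraries were scaled to the CD8 T cell markers. In GENCODE M21, 1033 exon bases of Stat4 are shared with Gm28177, a non-coding transcript on the same strand.

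Il18r1 encodes the chain that binds IL-18. It had 30.7 and 29.1 FPKM in the libraries labelled knockout, against 32.9 and 40.5 FPKM in wild type. Both libraries labelled knockout were below both wild type ones by a small margin, and the groups overlapped after each of the 3 scalings for which this was counted (upper-quartile, median and CD8 T cell markers). The log2 fold was -0.28 (SE 0.26, 95% interval -0.87 to 0.31, limma adjusted p = 0.882), and -0.13 without wild type replicate 2 or -0.43 without wild type replicate 1.

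Il18rap encodes the signalling partner of that receptor, from a gene on the same chromosome. Its values were 23.9 and 37.2 FPKM in the libraries labelled knockout and 33.6 and 27.0 FPKM in wild type. The libraries labelled knockout were again the lowest and the highest of the 4. The log2 fold was -0.01 (SE 0.30, 95% interval -0.70 to 0.67, limma adjusted p = 0.996), so that the interval holds anything from 0.617 to 1.59 times the wild type level.

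**Figure D2:**
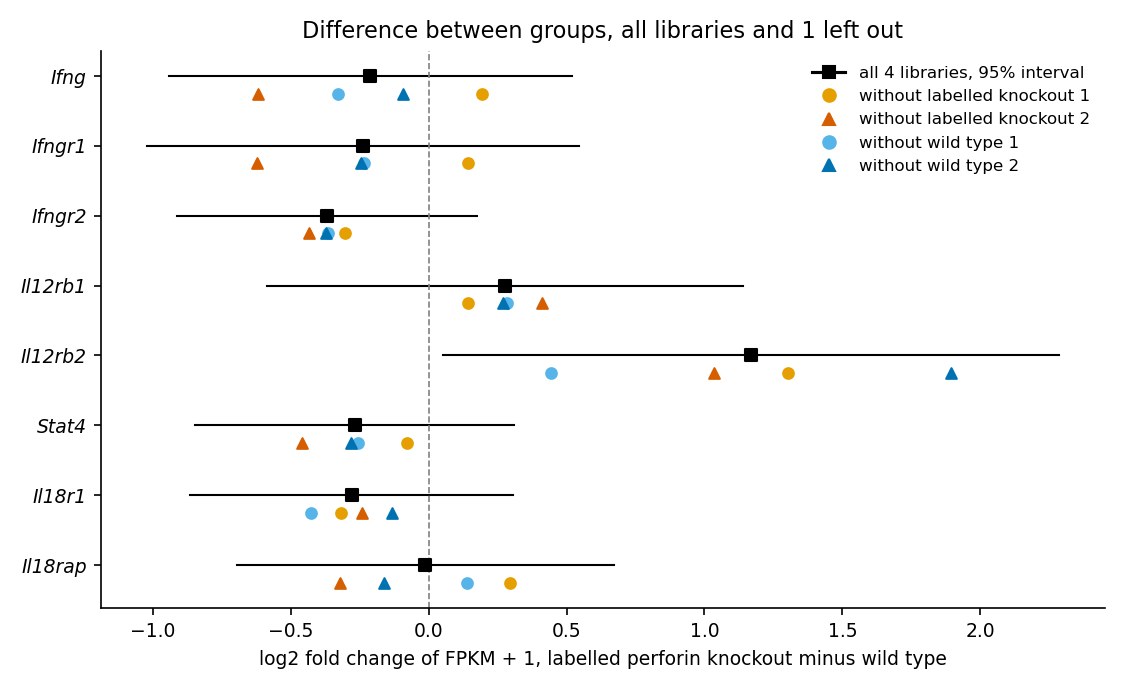
Log2 fold change of FPKM + 1, labelled perforin knockout minus wild type, for each gene: black squares with lines give the value and 95% limma interval from all 4 libraries, and coloured points the values with 1 library left out. The Il12rb2 interval, 0.05 to 2.29 before adjustment for the number of genes, lies above 0, and its value without wild type replicate 1 is 0.44; for Ifng and Ifngr1 the sign turns without the library labelled knockout replicate 1.

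Across the 8 genes, 6 had a log2 fold below 0, as did 58.3% of all tested genes. Groups did not overlap for 5 of the 8, where 35.9% of tested genes did so. Of these 5, Il12rb1 and Il12rb2 were higher in both libraries labelled knockout (13.9% of tested genes), and Ifngr2, Stat4 and Il18r1 were below wild type in both (21.9% of tested genes). After upper-quartile scaling the shares over all tested genes were 18.4% higher and 17.5% lower, and the members counted 2 higher and 2 lower. When the libraries were scaled to the CD8 T cell markers, a setting chosen after the values were seen, the shares were 24.0% higher and 11.7% lower, and the members counted 2 higher and 1 lower. That scaling moved the median log2 fold of all tested genes by 0.16. The median over the 8 genes was -0.23, beside -0.08 over all tested genes.

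Ratios within a library do not depend on a common scaling of that library. The Il12rb2 to Il12rb1 ratio of FPKM was 1.74 and 2.70 in the libraries labelled knockout, against 0.497 and 1.97 in wild type. The groups overlapped, because the library labelled knockout replicate 1 lay below wild type replicate 2. For the IL-18 receptor the Il18rap to Il18r1 ratio was 0.779 and 1.28 in the libraries labelled knockout and 1.02 and 0.667 in wild type, without a common direction. The Ifngr2 to Ifngr1 ratio was 0.0359 and 0.0231 in the libraries labelled knockout and 0.0316 and 0.0317 in wild type, so Ifngr2 was the far scarcer RNA of the pair in every library. Two-sided exact permutation tests on the log ratios, 3 in all, gave p = 0.667 for the IL-12 and IL-18 receptor pairs and p = 1 for the interferon gamma receptor pair, before any adjustment.

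**Figure D3:**
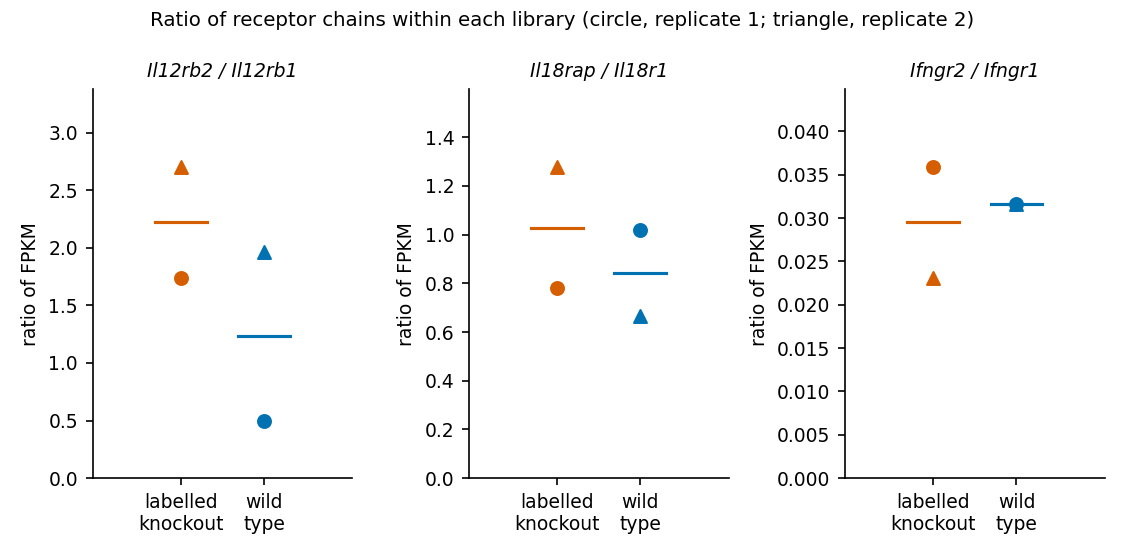
Ratio of FPKM between the chains of each receptor within a library, for libraries labelled perforin knockout (left) and wild type (right); circles are replicate 1, triangles replicate 2 and bars the mean of 2, on axes that start at 0. In each panel the 2 groups overlap, and the wild type points for Ifngr2 to Ifngr1 coincide at 0.0316 and 0.0317.

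IL-12 and IL-18, the ligands of the other receptors, are made largely by cells other than T cells. Of 7 ligand and decoy genes of the IL-12 and IL-18 families, only Il12b, which encodes the subunit shared by IL-12 and IL-23, reached a mean of 1 FPKM. It was listed at 0 and 0.202 FPKM in the libraries labelled knockout, against 4.46 and 2.06 FPKM in wild type, a log2 fold of -1.90 (SE 0.53) with an unadjusted limma p of 0.0065 and an adjusted p of 0.866. Il12b passed the filter only through its wild type values. Il12a, the other IL-12 subunit gene, was listed at 0.272 and 0 FPKM in the libraries labelled knockout and at 0 and 0.142 FPKM in wild type. Il18 had 0 and 0.363 FPKM in the libraries labelled knockout and 0.960 and 1.23 FPKM in wild type, so that the groups did not overlap. Il18bp, which encodes the soluble decoy of IL-18, had 1.55 and 0.304 FPKM in the libraries labelled knockout and 1.22 and 0.188 FPKM in wild type, higher in replicate 1 of both groups. Ebi3, the partner subunit of IL-27, had 0 and 0.194 FPKM in the libraries labelled knockout and 2.01 and 0.755 FPKM in wild type. Il27, for the other subunit, was listed at 0 and 0.603 FPKM in the libraries labelled knockout and at 0 in both wild type libraries. Il23a had 0 and 1.36 FPKM in the libraries labelled knockout and 1.71 and 0.392 FPKM in wild type, with overlapping groups. Macrophage and dendritic cell markers, 9 of 10 found, summed to 144 and 66.8 FPKM in the libraries labelled knockout and to 75.6 and 44.5 FPKM in wild type. The Kupffer cell marker Clec4f was listed at 1.98 and 0 FPKM in the libraries labelled knockout and at 0.0334 and 0 FPKM in wild type. Their part in the ligand values was not tested.

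Regulators of Ifng transcription or mRNA were counted over 15 tested genes of 16 listed. None (0) passed limma's adjusted threshold, 12 had a log2 fold above 0 (41.7% of all tested genes) and 3 below, and the median was 0.10. The list was not divided into genes that raise and genes that lower Ifng RNA. Its count of signs therefore gives no direction for Ifng. Of the 15, 4 were higher and 1 was lower in both libraries labelled knockout, against 13.9% and 21.9% of all tested genes. Runx3, a transcription factor of CD8 T cell identity, had 100.4 and 68.1 FPKM in the libraries labelled knockout, against 53.3 and 50.3 FPKM in wild type (log2 fold 0.67, SE 0.27). Its unadjusted limma p of 0.0385 was the only one under 0.05 in this list, where 4.79% of all tested genes had such a p. The adjusted p of Runx3 was 0.866. Both libraries labelled knockout were above both of wild type. The T-box factor gene Eomes had 14.1 and 11.8 FPKM in the libraries labelled knockout and 9.07 and 9.57 FPKM in wild type, again without overlap. Tbx21, which encodes T-bet, had 99.7 and 112 FPKM in the libraries labelled knockout and 95.4 and 90.9 FPKM in wild type, a log2 fold of 0.18. Batf had a log2 fold of -0.49 and Runx1 of -0.35, and neither passed.

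Signal transducers downstream of the IL-12 and interferon gamma receptors were counted over 12 tested genes. Of these, 0 passed limma's adjusted threshold and 0 had an unadjusted p under 0.05. In both libraries labelled knockout 0 were higher and 1 was lower. The log2 folds lay between -0.40 and 0.15 with a median of -0.13. The shares over all tested genes were 4.79% with an unadjusted limma p under 0.05, and 13.9% higher and 21.9% lower without overlap. The gene that was lower in both was the kinase gene Jak2, with 10.4 and 9.24 FPKM in the libraries labelled knockout and 11.4 and 11.4 FPKM in wild type. Socs1, a feedback inhibitor of JAK kinases, had 54.8 and 107 FPKM in the libraries labelled knockout and 94.8 and 109 FPKM in wild type, a difference carried by replicate 1 of the libraries labelled knockout. Ptpn2 and Pias1, both negative regulators of STAT signalling, had log2 folds of -0.37 each.

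In the IL-18 signalling list, 0 of 15 tested genes passed and 0 had an unadjusted limma p under 0.05, 1 was higher and 3 were lower in both libraries labelled knockout, with a median log2 fold of -0.17. Of all tested genes, 4.79% had an unadjusted limma p under 0.05, and 13.9% and 21.9% were higher and lower without overlap. Tab1, which encodes an adaptor of the TAK1 kinase, had 2.59 and 3.20 FPKM in the libraries labelled knockout, against 8.13 and 4.27 FPKM in wild type (log2 fold -0.84, SE 0.40, limma adjusted p = 0.866). Tab2, which encodes a related adaptor, had overlapping groups and a log2 fold of -0.56. Irak1 and Tollip, a kinase gene and an inhibitor gene of this pathway, were the others below both wild type libraries, at -0.53 and -0.36. Myd88, the adaptor of the IL-18 receptor, had 59.0 and 73.6 FPKM in the libraries labelled knockout and 61.4 and 74.5 FPKM in wild type, with overlapping groups.

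Related receptor chains were tested for 9 of 12 genes. None (0) passed or had an unadjusted limma p under 0.05, and the median log2 fold was -0.18. Of the 9, 1 was higher and 3 were lower in both libraries labelled knockout. Over all tested genes, 4.79% had such a p, and 13.9% and 21.9% were higher and lower without overlap. Il1r2, a decoy receptor for IL-1 and a gene that neutrophils also express, had 3.75 and 16.8 FPKM in the libraries labelled knockout and 20.2 and 18.0 FPKM in wild type (log2 fold -1.12, SE 0.54, limma adjusted p = 0.866). Neutrophil markers, 8 of 9 found, summed to 102 and 142 FPKM in the libraries labelled knockout and to 227 and 238 FPKM in wild type. The 6 that were tested all had a log2 fold below 0 (58.3% of all tested genes). Of these 6, 5 were lower in both libraries labelled knockout (21.9% of all tested genes), and 0 passed limma's adjusted threshold. The granule enzyme genes Mpo and Elane, both too low to be tested, went different ways. Mpo was listed at 0 in both libraries labelled knockout and at 0.156 and 0.721 FPKM in wild type, and Elane at 1.59 and 0 FPKM in the libraries labelled knockout and at 0 in both wild type libraries. The part of neutrophils in the Il1r2 value was not tested. Ifnar1, a chain of the type I interferon receptor, had a log2 fold of -0.63, and Il6st, the shared signalling chain of the IL-6 family, of 0.50. Il1rap, the accessory chain of the IL-1 receptor, had a log2 fold of -0.62 with overlapping groups. Il23r, the partner of Il12rb1 in the IL-23 receptor, was listed at 0 and 0.182 FPKM in the libraries labelled knockout and at 0 in both wild type libraries.

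Genes induced by interferon gamma were tested for 17 of 21 listed, a list that shares Socs1 among others with the signalling list. None (0) passed or had an unadjusted limma p under 0.05, 0 were higher and 2 were lower in both libraries labelled knockout, with a median log2 fold of -0.14. Over all tested genes, 4.79% had an unadjusted limma p under 0.05, and 13.9% were higher and 21.9% lower without overlap. Log2 folds were below 0 for 15 of the 17, where 58.3% of all tested genes had one below 0, and above 0 for 2. The 2 lower in both were the guanylate-binding protein gene Gbp2, with 55.5 and 54.4 FPKM in the libraries labelled knockout and 74.0 and 69.1 FPKM in wild type, and Irgm2, an immunity-related GTPase gene, with a log2 fold of -0.14. Irf8 had a log2 fold of 0.38 and Irgm1 of -0.44. The list's median was 0.02 when the library labelled knockout replicate 1 was left out, where that of all tested genes was -0.01. It was -0.05 with upper-quartile scaling and 0.02 when scaled to the CD8 T cell markers. The median of all tested genes was 0.01 and 0.08 under these scalings.

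**Figure D4:**
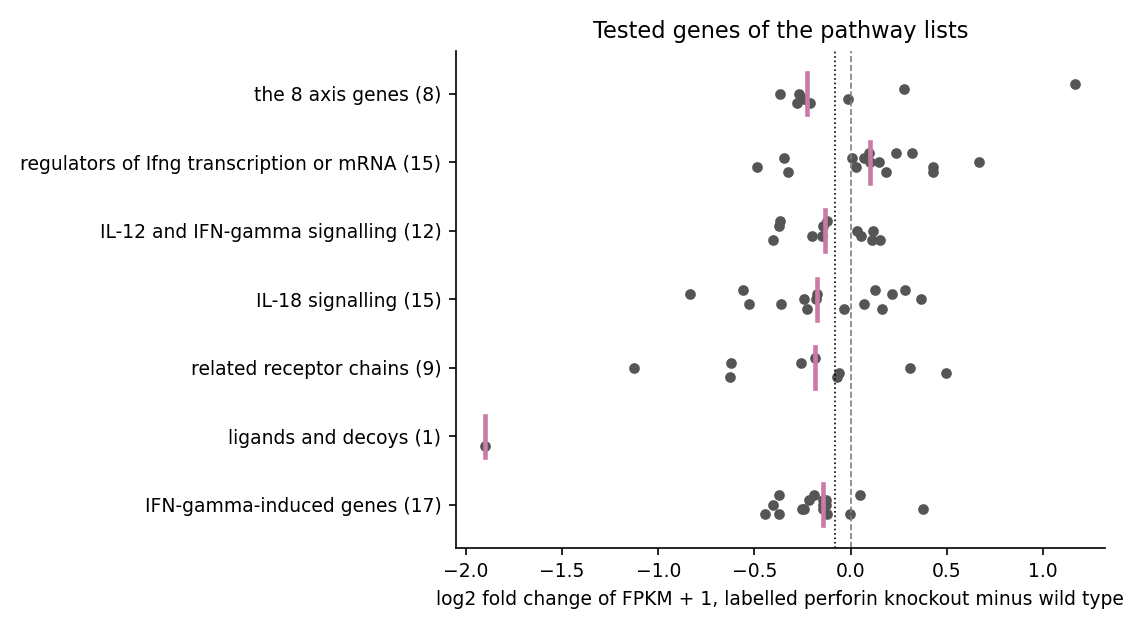
Log2 fold change of FPKM + 1, labelled perforin knockout minus wild type, for every tested gene of the axis and of 6 pathway lists (number tested in parentheses); grey points are genes, pink bars list medians, the dotted line the median of all tested genes (-0.08) and the dashed line 0. Medians of the pathway lists lie between -0.18 and 0.10 except for the ligand list, which holds Il12b alone.

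NK cells also express Ifng and the IL-12 and IL-18 receptors. The 8 NK cell markers examined summed to 32.9 and 45.7 FPKM in the libraries labelled knockout and to 42.8 and 40.7 FPKM in wild type, ranges that overlap. Most of each sum was Fcgr3, with 19.5 and 26.5 FPKM in the libraries labelled knockout and 23.2 and 23.1 FPKM in wild type. The sums therefore mainly follow that gene. Klra4 and Klra8 reached at most 3.78e-06 and 0.00420 FPKM. Ncr1, which defines NK cells, was listed at 0.753 and 0 FPKM in the libraries labelled knockout and at 0 in both wild type libraries. Endothelial markers, 9 of 9 found, summed to 313 and 75.0 FPKM in the libraries labelled knockout and to 152 and 34.6 FPKM in wild type. They were highest in the library labelled knockout replicate 1, the library with the lowest Ifng, Ifngr1, Ifngr2, Stat4 and Il18rap values. That library also had the highest Il12rb1 value. In wild type, endothelial markers were higher in replicate 1, and Ifng, Il18r1 and Il12rb2 were lower there. Ifngr1, Ifngr2, Stat4 and Il12rb1 were nearly equal in both wild type libraries, and Il18rap was higher in replicate 1. The hepatocyte markers, 7 of 7 found, summed to 21.7 and 1.01 FPKM in the libraries labelled knockout and to 0 and 4.09 FPKM in wild type, with Ttr and Fgb listed at 0 throughout. CD4 T cell markers (4 of 4 found) summed to 14.3 and 24.2 FPKM in the libraries labelled knockout and to 8.06 and 26.8 FPKM in wild type. B cell markers (5 of 5) summed to 22.9 and 58.0 FPKM in the libraries labelled knockout and to 37.6 and 45.9 FPKM in wild type, and NKT and gamma delta T cell markers (6 of 7 found) to 5.30 and 5.05 FPKM in the libraries labelled knockout and to 5.42 and 6.59 FPKM in wild type. The part of these cells in the values of the 8 genes was not tested.

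Likeness of profile was measured as the Euclidean distance between log2(FPKM + 1) values centred on each gene's mean over the 4 libraries, among 9381 other genes. The genes closest to Ifng were Dlat (0.0264), Sae1 (0.0435) and Stim2 (0.0446). Each had its lowest value in the library labelled knockout replicate 1 and its highest in replicate 2, as with Dlat at 7.76 and 14.0 FPKM in the libraries labelled knockout and 11.3 and 13.4 FPKM in wild type. The genes closest to Il12rb2 were Srrd (0.108), Hspa1l (0.136) and Hsph1 (0.190). Each of these had its lowest value in wild type replicate 1, as with the chaperone gene Hsph1 at 131 and 168 FPKM in the libraries labelled knockout and 42.7 and 99.1 FPKM in wild type. With 4 libraries such likeness is a description of these samples.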

How the data were processed

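Total RNA of sorted hepatic CD8 T cells was used for TruSeq RNA libraries, which were sequenced by Illumina HiSeq, per the labels. Per the submitters' processing notes, the tool Bowtie 0.12.2 and the build mm8 were involved, in roles not stated. The sources used here do not name the authors' quantification tool or annotation. Header and labels name no unit for the deposited table, and its values were read as FPKM because they were not whole, had unequal column totals and reached lower non-zero values in longer transcripts (GENCODE M21 median lengths). Groups came from the sample titles.

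Values were analysed as log2(FPKM + 1), unscaled, in R 4.3.3 with limma 3.58.1 (moderated test, intensity trend, two-sided, Benjamini-Hochberg adjustment over 9805 genes, threshold 0.05). The procedure was run on simulated data with known changes and independent normal noise of the same spread in every library. Such data hold no outlying library, so that run does not show how the test behaves on these libraries. The 8 genes and the lists were chosen with earlier results of these data known. The text names all 8 genes, at most the 4 genes of a list with the smallest p, and the 3 closest profiles for Ifng and Il12rb2. Tbx21, Myd88, Irgm2, Il23r, Serbp1, the cell type markers named singly and the ligand genes besides Il12b were chosen after their values were seen. Alternatives were the replicate block, each library left out, other filters, scalings, pseudocounts and variance models. Some list members are counted but not named. Shared exons came from GENCODE M21, and its coordinates were not used.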

Additional observations from a re-analysis of the deposited data

How the results depend on the processing

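Of 127 fitted log2 folds of the 8 genes under 16 alternatives, 119 kept their direction and stayed short of the threshold, with a smallest limma adjusted p of 0.180. The other 8 had the opposite sign. Without the library labelled knockout replicate 1, Ifng was 0.19, Ifngr1 0.14 and Il18rap 0.30. Il18rap was also 0.14 without wild type replicate 1, 0.084 with upper-quartile scaling, 0.043 with median scaling, 0.069 with quantile normalization and 0.16 when scaled to CD8 T cell markers. With 1 library left out, Ifng ranged from -0.62 to 0.19, Ifngr1 from -0.62 to 0.14 and Il18rap from -0.32 to 0.30. The cause was not tested. Il12rb2 had log2 folds between 0.44 and 1.89 over its alternatives, with adjusted p between 0.408 and 1.000, and Ifngr2 between -0.43 and -0.19. Il12rb1 could not be fitted under the stricter filter (a mean of at least 5 FPKM). The count of all tested genes past the threshold ranged from 0 to 1 with 1 library left out and was 0 under every other alternative, as was that of the 8 genes under all of them.

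With the replicate number as a block, 0 genes passed and the Il12rb2 log2 fold remained 1.17 (adjusted p = 0.867). Over all tested genes, deviations of same-numbered libraries correlated at 0.068 over 2 pairs, which does not show a pairing. Some marker sums did follow the replicate number. Those of endothelial markers and of macrophage and dendritic cell markers were higher in replicate 1 of both groups. Those of CD4 T cell, B cell and neutrophil markers were higher in replicate 2 of both. Most of each CD4 T cell sum was Cd40lg. Its values were 12.1 and 21.1 FPKM in the libraries labelled knockout and 6.11 and 24.9 FPKM in wild type. In wild type the neutrophil rise came with Ngp (4.52 and 21.6 FPKM), while S100a8 was at 137 and 130 FPKM. Sums of CD8 T cell, NK cell, NKT and gamma delta T cell and hepatocyte markers did not run the same way in both groups. The reason was not tested. The log2 difference in the Il12rb2 to Il12rb1 ratio ranged from 0.14 to 2.13 with 1 library left out. The median of the related receptor list ranged from -0.44 to 0.08, and that of the interferon gamma-induced list from -0.30 to 0.02. The ligand list's value, from Il12b alone, was -4.18 with a pseudocount of 0.1 and -0.68 with 5. Depth is unknown, so the counting error of the low values (Il12rb1, Il12rb2 and the ligands) could not be computed.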
